A study of Hydra vulgaris with 12 samples.

Results

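Small RNAs bound by Hywi and by Hyli were compared in colchicine-treated Hydra, animals depleted of interstitial cells, over the transcripts to which the small RNAs mapped. A transcript was a member when it had at least 10 CPM (counts per 1e6 counts of its own column) in any of 4 columns: antisense and sense counts in the Hywi immunoprecipitate, and antisense and sense counts in the Hyli immunoprecipitate. This gave 11641 members of 38747 transcripts in all. Each side was 1 library, so no difference between Hywi and Hyli was tested against replicate spread. Intervals and the floor of 3 counts used here cover counting error only.

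Hydra is a freshwater polyp, and its PIWI proteins are named Hywi and Hyli. Such proteins carry piRNAs, short RNAs that guide them to matching transcripts such as those of transposons. In the ping-pong cycle known from animals, a PIWI protein loaded with an antisense piRNA cuts the matching transcript, and the cut end is loaded into a partner PIWI protein as a sense piRNA. Sense and antisense piRNAs from the same transcript are then found in different proteins. Hydra holds ectodermal and endodermal epithelial stem cells and interstitial stem cells, and the interstitial lineage gives nerve cells, stinging cells, gland cells and germ cells.

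All animals were Hydra vulgaris of the AEP strain. The colchicine-treated animals belonged to a line with the cnnos1::GFP transgene, and each of the Hywi and Hyli immunoprecipitates was made from 225 pooled whole animals. The same immunoprecipitates from 225 wild-type animals without treatment stand beside them, and treatment and line cannot be told apart in that comparison. A degradome library, made from the 5-prime ends of RNA without a cap, came from 20 colchicine-treated and from 20 wild-type animals. The mRNA libraries were 3 of a hywi knockdown, whose animals carried a hairpin transgene against hywi that is active in their epithelial stem cells, and 3 of wild-type siblings that lacked it, each from 10 animals collected 4 days after hatching. Transcript names are not paired with gene names, so markers of interstitial cells, the hywi transcript and transposon families were not analysed here. In whole animals, fewer cells of a type and less RNA per cell cannot be told apart.

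The colchicine libraries held 19.4 M counts for Hywi and 12.8 M for Hyli (M for 1e6), against 22.3 M for Hywi and 40.5 M for Hyli in wild-type animals. The 4 columns differed in depth, with 16.6 M Hywi antisense, 2.72 M Hywi sense, 6.16 M Hyli antisense and 6.68 M Hyli sense counts. The minimum of 10 CPM was therefore 166 counts in the Hywi antisense column, 27.2 in the Hywi sense column, 61.6 in the Hyli antisense column and 66.8 in the Hyli sense column. Antisense values were rarely whole numbers and sense values mostly were: in 96.6% of members the Hywi antisense value was a fraction, against 15.3% for Hywi sense, 89.0% for Hyli antisense and 17.1% for Hyli sense. The part of this difference in the results below was not tested beyond the 136 members whose 4 values were all whole. Transcripts differ in length and the files give no lengths, so levels are compared between proteins within a transcript and not between transcripts.

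Most of the piRNA counts lay in the members. They held 98.7% of Hywi antisense, 98.1% of Hywi sense, 96.5% of Hyli antisense and 98.7% of Hyli sense counts. Of the members, 5739 reached the minimum in 1 column, 3461 in 2, 1848 in 3 and 593 in all 4. The commonest single column was Hywi sense with 1977 members, followed by Hyli antisense with 1794, Hyli sense with 992 and Hywi antisense with 976. Among the members above the minimum in several columns, the commonest set was Hywi antisense with both Hyli strands, with 1334 members. Hywi antisense with Hyli antisense alone had 1061, Hywi sense with Hyli sense alone 859, Hywi sense with Hyli antisense alone 730 and Hywi antisense with Hyli sense alone 724.

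Hywi-bound RNA was mostly antisense and Hyli-bound RNA was split between the strands. The antisense share of all counts was 85.9% in Hywi (95% Wilson interval 85.92 to 85.95) and 48.0% in Hyli (47.94 to 47.99), a gap of 38.0 percentage points. In wild-type animals the shares were 87.4% in Hywi and 28.9% in Hyli, a gap of 58.4 points. The Hywi share was thus close in both kinds of animals, and the Hyli share was the one that stood higher in the colchicine library. Over the transcripts whose 4 values were all whole, the colchicine shares were 85.1% in Hywi and 77.4% in Hyli. These include only 136 of the 11641 members, and the part of fractional counts in the Hyli value was not tested. The colchicine Hyli share was 51.2% without the 10 largest transcripts, 50.8% without the 100 largest and 47.4% over members.

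Per transcript, the antisense share had 2 separate peaks in Hywi and was spread more evenly in Hyli. Of 8849 members with at least 50 Hywi counts, 5391 (60.9%) were at least 80% antisense, 2472 (27.9%) were at most 20% antisense and 986 (11.1%) lay between. Of 9666 members with at least 50 Hyli counts, 3800 (39.3%) were at least 80% antisense, 3127 (32.4%) were at most 20% antisense and 2739 (28.3%) lay between. The median antisense share was 98.5% in Hywi and 53.4% in Hyli. In wild-type animals, counted over the same members, the medians were 97.0% in Hywi and 24.1% in Hyli.

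**Figure D1:**
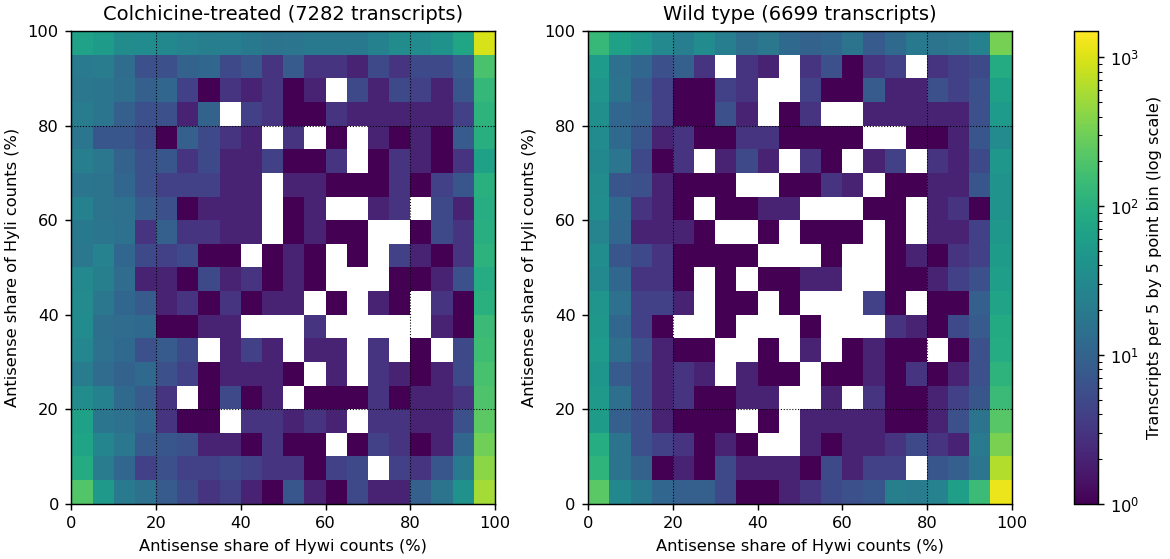
Antisense share per transcript in percent, Hywi on one axis and Hyli on the other, for members with at least 50 counts in each immunoprecipitate, with colchicine-treated animals beside wild-type animals. In both kinds of animals most transcripts lie near the ends of the Hywi axis, and in colchicine-treated animals more of those with a high Hywi share have a high Hyli share as well.

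The members were sorted by strand into classes, with at least 80% antisense called antisense and at most 20% called sense, where both proteins had at least 50 counts. Of the 7282 members that could be sorted, 1636 (22.5%) were antisense in Hywi and sense in Hyli, the arrangement of opposite strands in the ping-pong cycle. A further 1573 (21.6%) were antisense in both proteins, 650 (8.93%) were sense in both and 360 (4.94%) had the reverse arrangement, sense in Hywi and antisense in Hyli. The remaining 3063 (42.1%) were mixed, of which 1523 were antisense in Hywi with a Hyli share between the limits. Another 1567 members had under 50 counts in Hyli only, 2384 in Hywi only and 408 in both. The limits of 80% and 20% set these numbers: at 90% and 10% the opposite-strand class had 1034 members and the reverse class 163.

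The classes held very different parts of the 2 immunoprecipitates. The opposite-strand class held 23.7% of Hywi antisense and 60.3% of Hyli sense counts, but 1.14% of Hywi sense and 3.57% of Hyli antisense counts. The class antisense in both held 30.9% of Hywi antisense and 35.5% of Hyli antisense counts, with 1.41% of Hywi sense and 0.900% of Hyli sense counts. The class sense in both held 49.3% of Hywi sense and 13.6% of Hyli sense counts. The reverse class held 10.9% of Hywi sense and 9.31% of Hyli antisense counts. Mixed members held 42.0% of Hywi antisense, 30.5% of Hywi sense, 35.7% of Hyli antisense and 18.7% of Hyli sense counts. More of the Hywi antisense counts therefore lay in the class antisense in both than in the opposite-strand class.

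**Figure D2:**
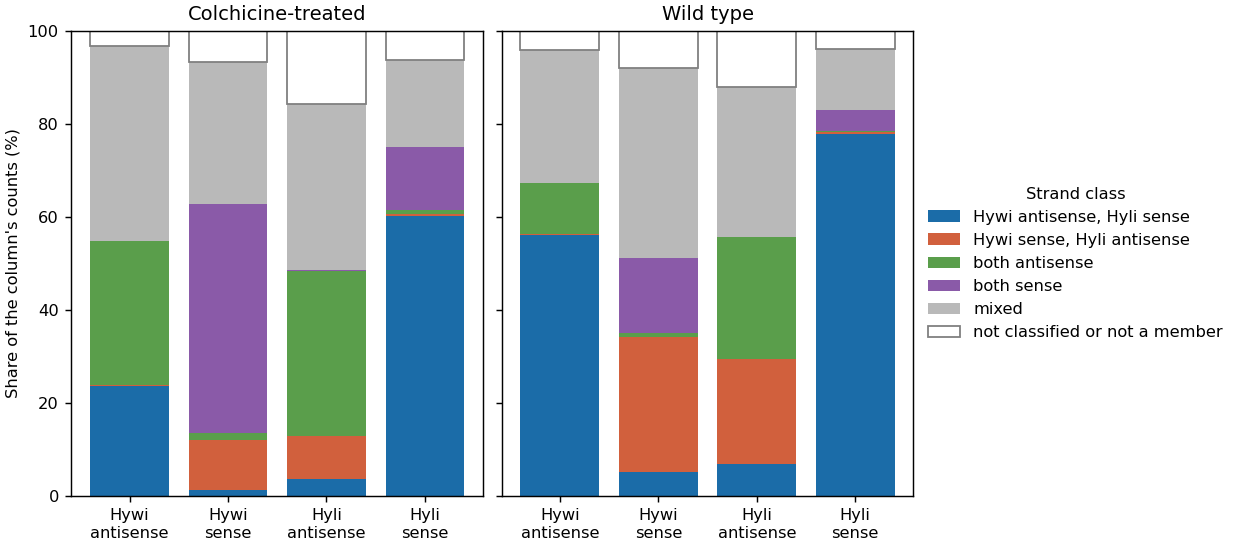
Percent of the counts of each column held by each strand class, in colchicine-treated and wild-type animals. In colchicine-treated animals the opposite-strand class holds 23.7% of Hywi antisense and 60.3% of Hyli sense counts, against 56.1% of Hywi antisense and 78.0% of Hyli sense counts in wild-type animals.

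The classes also differed in which protein held more counts over both strands. On the log2 scale of CPM plus 1, scaled to the total of both strands, the median difference of Hywi minus Hyli was 1.09 in the class antisense in both and 0.81 in mixed members. It was -0.25 in the class sense in both, -0.52 in the opposite-strand class and -1.03 in the reverse class. The quartiles show that each class held transcripts on either side: they were -1.04 and 2.66 for the class antisense in both, and -1.62 and 0.42 for the opposite-strand class. These levels entered the sorting through the minimum of 50 counts and through the minimum of 10 CPM for members. The latter is a different number of counts in each column, and its part in the medians was not tested.

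Opposite-strand transcripts were named by the size of the smaller of their Hywi and Hyli levels. Transcript t25197aep had 54655 antisense and 485 sense counts in Hywi, and 2644 antisense and 40900 sense counts in Hyli. Transcript t25884aep had 51307 antisense and 441 sense counts in Hywi, and 1552 antisense and 143386 sense counts in Hyli. For t37924aep these were 54298 and 274 in Hywi and 3328 and 25542 in Hyli. All 3 had nearly all Hywi counts on the antisense strand and nearly all Hyli counts on the sense strand, and each was in the same class in wild-type animals. The antisense shares of t25884aep were 99.1% in Hywi (Wilson interval 99.06 to 99.22) and 1.07% in Hyli (1.02 to 1.12).

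In the reverse class, t5835aep had 1056 antisense and 10785 sense counts in Hywi, and 16749 antisense and 296 sense counts in Hyli. Transcript t36613aep had 814 antisense and 10804 sense counts in Hywi, and 19678 antisense and 1844 sense counts in Hyli. For t31165aep the counts were 1617 antisense and 10220 sense in Hywi, and 6406 antisense and 683 sense in Hyli. The strands of the proteins are exchanged in these transcripts relative to the opposite-strand class. Of the 3, none was in the reverse class in wild-type animals: t5835aep had 25.7 antisense and 4 sense counts in wild-type Hywi, too few to sort, and the other two were mixed there. They do not stand for the class: of its 234 members sorted in both kinds of animals, 145 (62.0%) were reverse in wild-type animals too.

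The class antisense in both had some of the largest single values. Transcript t24892aep had 580061 antisense and 4 sense counts in Hywi, and 35480 antisense and 0 sense counts in Hyli, and it alone held 3.49% of all Hywi antisense counts. A count of 0 allows up to 3 counts, or 0.234 CPM of the Hyli library. Transcript t37327aep had 91095 antisense and 8693 sense counts in Hywi, and 31102 antisense and 7714 sense counts in Hyli. Transcript t2624aep had 35455 antisense and 2058 sense counts in Hywi, and 22148 antisense and 201 sense counts in Hyli. Sense counts were thus almost absent from t24892aep in both proteins, while t37327aep had many in each.

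The class sense in both rested on few transcripts. Its 10 largest members held 51.3% of the Hywi counts and 73.3% of the Hyli counts of the class. Transcript t30823aep had 200970 sense and 9.33 antisense counts in Hywi, and 262867 sense and 294 antisense counts in Hyli, which was 28.5% of the Hyli counts of the class. Transcript t12446aep had 133818 sense and 4.25 antisense counts in Hywi, and 90813 sense and 32.8 antisense counts in Hyli. Transcript t23853aep had 55166 sense and 77.9 antisense counts in Hywi, and 3338 sense and 215 antisense counts in Hyli. The first of these was higher in Hyli in CPM over both strands and the last was higher in Hywi, with t12446aep close to equal (6916 CPM in Hywi and 7076 CPM in Hyli). In the other unmixed classes the 10 largest members held from 10.6% to 37.8% of the Hywi counts and from 14.9% to 29.4% of the Hyli counts.

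**Figure D3:**
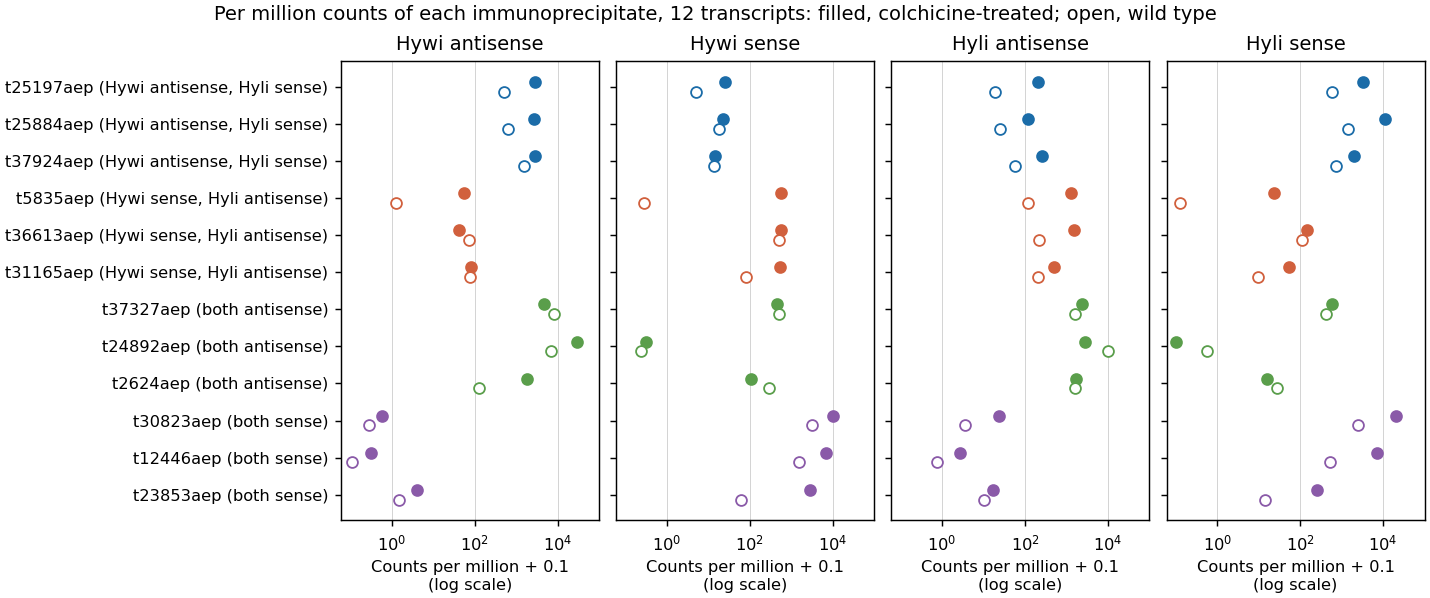
CPM of each immunoprecipitate, scaled to both strands, plus 0.1, on a log axis, for 3 transcripts of each unmixed strand class, with filled points for colchicine-treated and open points for wild-type animals. In colchicine-treated animals the opposite-strand transcripts are highest in Hywi antisense and Hyli sense, and the reverse ones in Hywi sense and Hyli antisense. The others are higher on the same strand in both proteins, though t37327aep has many counts on each. Some wild-type points lie otherwise, such as those of t2624aep, with 130 CPM Hywi antisense and 295 CPM Hywi sense.

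Hywi antisense was then set against Hyli sense, the pair of columns that opposite-strand piRNAs join, as the log2 ratio of CPM plus 1. Of the 11641 members, 2870 (24.7%) were at least 4-fold higher in Hywi antisense and 2885 (24.8%) were at least 4-fold lower, with a median log2 ratio of 0.05. The choice of members bears on these shares: 976 reached the minimum only in Hywi antisense and 992 only in Hyli sense. Another 1977 reached it only in Hywi sense and 1794 only in Hyli antisense, with both compared columns under it. The part of this choice in the shares was not tested. In wild-type animals, 1712 of the same members (14.7%) were higher and 1754 (15.1%) were lower. Members were chosen by the colchicine columns, so those low in wild-type animals are held within 4-fold there by the pseudocount. Over the 8439 transcripts that were members in both kinds of animals, 2001 (23.7%) were higher and 2245 (26.6%) lower in colchicine-treated animals, against 1547 (18.3%) higher and 1617 (19.2%) lower in wild-type animals. The balance of higher and lower depends on the scaling: with CPM by the total of both strands 3295 were higher and 1999 lower, and with median-ratio scaling 3817 and 1915. With a pseudocount of 10 CPM, 1539 were higher and 1018 lower. Among the 136 members whose values were all whole, 35 were higher and 13 lower.

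The ratio was partly shared with wild-type animals. Of the 2870 members higher in Hywi antisense in colchicine-treated animals, 1198 were also higher in wild-type animals, 86 were lower there and 1586 were within 4-fold. Of the 2885 lower members, 1193 were lower in wild-type animals, 29 were higher and 1663 were within 4-fold, which includes members low in wild-type animals. Spearman's correlation of the ratio between the kinds of animals was 0.66 over the 11641 members, which share transcripts, lengths and library depths, and is given as a description.

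The strand classes took different places in this ratio, which uses the same counts as the classes and so describes them. Of the class antisense in both, 1439 of 1573 were at least 4-fold higher in Hywi antisense, and of the class sense in both 645 of 650 were at least 4-fold lower. The opposite-strand class had 7 higher and 500 lower among its 1636 members, with a median log2 ratio of -1.12. This place below 0 depends on the scaling: with CPM by the total of both strands the opposite-strand class had 52 higher and 302 lower and a median of -0.41, and with median-ratio scaling 115 higher and 229 lower and a median of 0.00. The reverse class had 3 higher and 44 lower among 360, and mixed members had 798 higher and 686 lower among 3063. Most opposite-strand transcripts, therefore, had Hywi antisense and Hyli sense within 4-fold of each other.

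The highest ratio belonged to t24892aep. Its Hywi antisense level was 34884 CPM and its Hyli sense count was 0, so it was at least 77678-fold higher in Hywi antisense against the floor of 3 counts. Transcripts t20033aep (21440 Hywi antisense counts) and t34385aep (17887) also had 0 Hyli sense counts, and were at least 2871-fold and 2395-fold higher. Transcript t32044aep had 48919 Hywi antisense and 9 Hyli sense counts, which made 2942 and 1.35 CPM, a ratio of 2184 with a 95% counting interval of 1140 to 4818. All 4 were also antisense in Hyli, with 35480, 893, 1276 and 3372 Hyli antisense counts in the order given, so a lack of Hyli sense counts was not a lack of Hyli counts.

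The lowest ratios had many Hyli sense and almost no Hywi antisense counts. Transcript t30823aep had 0.561 CPM Hywi antisense and 39350 CPM Hyli sense, a log2 ratio of -14.62 with the pseudocount. Transcript t12446aep had 0.256 CPM Hywi antisense and 13594 CPM Hyli sense, a log2 ratio of -13.40. Transcripts t5201aep and t5202aep had 1.71 and 5.21 Hywi antisense counts and the same 29940 Hyli sense counts and 35.8 Hywi sense counts each. Equal values in a pair of transcripts occur when shared reads are divided between them, so these are uncertain as separate transcripts. Both t30823aep and t12446aep had abundant sense counts in Hywi as well as in Hyli, unlike t5201aep and t5202aep, where Hyli held nearly all.

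**Figure D4:**
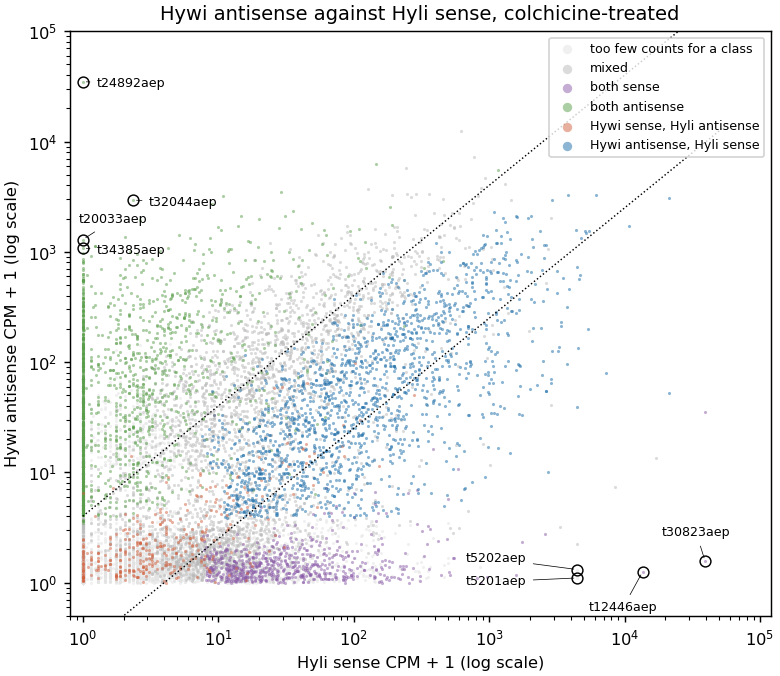
Hywi antisense CPM plus 1 against Hyli sense CPM plus 1 in colchicine-treated animals, both on log axes, 1 point per member coloured by strand class, with dotted lines at 4-fold and rings on the 4 highest and 4 lowest ratios. Opposite-strand members lie mostly between the lines or below them, with 7 at least 4-fold above and 500 at least 4-fold below, members antisense in both lie mostly above the lines and members sense in both below them.

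On the same strand, too, many members lay past 4-fold. Hywi antisense was at least 4-fold above Hyli antisense in 2817 members (24.2%) and at least 4-fold below it in 3464 (29.8%), with a median log2 ratio of -0.47, against 25.5% above and 22.6% below for the same members in wild-type animals. The larger number below turns with the settings, to 2073 above and 1590 below at a minimum of 50 CPM, and to 1549 above and 1327 below with a pseudocount of 10 CPM. Hywi sense was at least 4-fold above Hyli sense in 3201 (27.5%) and below it in 3589 (30.8%), against 30.5% above and 26.4% below in wild-type animals. At a minimum of 1 CPM this direction turned as well, with 4189 above and 4063 below. Hywi sense was above Hyli antisense, the reverse pairing, in 2712 (23.3%) and below it in 5138 (44.1%), with a median log2 ratio of -1.50, against 23.3% above and 21.4% below in wild-type animals. Other pseudocounts, minimums and scalings were not run for this pairing. Hywi sense was the shallowest column, and 4525 members had 3 or fewer counts in it, against 3144 in wild-type Hywi sense. The part of this in the ratio was not tested. Over both strands summed, 2001 members (17.2%) were at least 4-fold higher in Hywi and 2954 (25.4%) lower, against 1498 (12.9%) higher and 1670 (14.3%) lower for the same members in wild-type animals. The choice of members by the colchicine columns bears on all these comparisons. Over both strands, 1392 (16.5%) of the 8439 members of both were higher and 1842 (21.8%) lower in colchicine-treated animals. In wild-type animals 1421 (16.8%) were higher and 1646 (19.5%) lower. Over the same 8439, Hywi antisense was above Hyli antisense in 27.3% and below it in 26.8%, against 34.5% and 27.1% in wild-type animals. Hywi sense was above Hyli sense in 28.7% and below it in 37.3%, against 35.1% and 35.6% in wild-type animals. For Hywi sense over Hyli antisense these were 24.4% and 43.7%, against 28.2% and 26.8% in wild-type animals.

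Within the opposite-strand class, 1070 of 1636 (65.4%) were at least 4-fold higher in Hywi antisense than in Hyli antisense and 0 were lower. Of the same class, 1595 (97.5%) were at least 4-fold lower in Hywi sense than in Hyli sense. Over all members these shares were 24.2% and 30.8%. The classes were formed from the same counts, so these numbers follow largely from the class limits and are descriptions. Within the class antisense in both, Hywi antisense was at least 4-fold above Hyli antisense in 377 and below it in 360 of 1573. With CPM by the total of both strands these were 575 above and 239 below, with a median log2 ratio of 1.13 in place of 0.33, so a balance on the common strand holds only when each column is scaled to its own total. Within the class sense in both, Hywi sense was at least 4-fold above Hyli sense in 263 and below it in 30 of 650, but in 87 above and 96 below with CPM by the total of both strands.

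The largest counts of each column were spread to different degrees. The 10 largest transcripts held 8.83% of Hywi antisense counts, 29.2% of Hywi sense, 9.66% of Hyli antisense and 18.5% of Hyli sense counts. It took 383 transcripts to reach 50% of Hywi antisense counts, 43 for Hywi sense, 214 for Hyli antisense and 163 for Hyli sense. Hywi sense counts were thus the most concentrated and Hywi antisense counts the least.

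After t24892aep, the Hywi antisense column was led by t11400aep with 205495 counts, t15132aep with 120034, t34099aep with 103619 and t27046aep with 95736. Their Hyli antisense counts were 5664 for t11400aep, 20496 for t15132aep, 3923 for t34099aep and 5223 for t27046aep, and their Hyli sense counts were 4114, 5135, 965 and 1621 in the same order. Each of the 4 was thus higher in Hywi than in Hyli over both strands, with log2 ratios of 3.82, 1.65, 3.81 and 3.21. Transcript t34099aep had 27.5 Hywi antisense and 23.3 Hyli antisense counts in wild-type animals, so it was almost without piRNAs there. The others of the 5 had from 18378 to 150462 Hywi antisense counts in wild-type animals.

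The Hywi sense column was led by t30823aep and t12446aep, followed by t27024aep with 119756 counts, t13485aep with 63774 and t23853aep with 55166. Transcript t27024aep also had 17743 Hywi antisense counts and, in Hyli, 35652 antisense and 18216 sense counts, and was mixed. Transcript t13485aep had 57.7 antisense and 1121 sense counts in Hyli, a log2 ratio of Hywi over Hyli of 5.15 over both strands. It was 1.60 in wild-type animals, with 14428 sense counts in Hywi and 8394 in Hyli.

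Hyli antisense was led by transcripts with little Hywi RNA. Transcript t1007aep had 852 antisense and 2928 sense counts in Hywi, and 109195 antisense and 376 sense counts in Hyli. Transcript t32028aep had 132 antisense and 0 sense counts in Hywi, and 97922 antisense and 0 sense counts in Hyli. Transcript t30326aep had 2615 antisense and 2 sense counts in Hywi, and 74786 antisense and 62.5 sense counts in Hyli. All 3 had over 10 times fewer Hywi than Hyli counts. Next were t27651aep, with 144 antisense and 44 sense counts in Hywi against 56360 Hyli antisense counts, and t32340aep, with 395 and 111 in Hywi against 53736. The log2 ratios of Hywi over Hyli over both strands ran from -9.93 for t32028aep to -5.42 for t30326aep.

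Hyli sense was led by t30823aep, followed by t15818aep with 261108 counts, t25884aep with 143386, t32027aep with 142635 and t27038aep with 113680. In Hywi, t15818aep had 566 antisense and 4212 sense counts, t32027aep 860 antisense and 160 sense counts, and t27038aep 207 antisense and 189 sense counts. Apart from t30823aep and t25884aep, these transcripts had far fewer Hywi than Hyli counts, with log2 ratios over both strands of -6.36, -7.69 and -8.69. Of these, t15818aep and t32027aep had few Hyli sense counts in wild-type animals, 600 and 19, while t27038aep had 47125.

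The 4 columns were not alike across members. Spearman's correlation between Hywi antisense and Hyli antisense was 0.46 over the 11641 members, and between Hywi antisense and Hyli sense 0.34. For Hywi sense and Hyli sense it was 0.26. The remaining pairs were Hywi antisense with Hywi sense (-0.29), Hywi sense with Hyli antisense (-0.07) and Hyli antisense with Hyli sense (-0.07). The last 3 changed sign over the 25116 transcripts with at least 1 CPM, where they were 0.10, 0.15 and 0.19. In wild-type animals, over the same 11641 members, the highest was Hywi antisense with Hyli sense at 0.64, beside 0.63 for the antisense pair. Members share transcript length and library depth in all columns, so these are descriptions.

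Set beside wild-type animals, fewer members had the opposite-strand arrangement and more were antisense in both. In wild-type animals 6699 of the same members could be sorted, of which 2728 (40.7%) were antisense in Hywi and sense in Hyli. In the colchicine libraries it was 22.5%. The class antisense in both was 21.6% in colchicine-treated animals, against 624 members (9.31%) in wild-type animals. The class sense in both was 8.93% against 621 (9.27%), the reverse class 4.94% against 500 (7.46%), and mixed members 42.1% against 2226 (33.2%). By the same rule of 10 CPM, 10707 transcripts were members in wild-type animals, and 8439 were members in both kinds of animals, 72.5% of the colchicine members and 78.8% of the wild-type ones. The wild-type Hyli library was 40.5 M counts deep against 12.8 M in colchicine-treated animals, and the part of depth in the class numbers was not tested. The opposite-strand share of the colchicine libraries moved with the minimum, from 17.2% at 10 counts to 32.3% at 200 counts. These minimums were not run for wild-type animals.

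Many transcripts were in different classes in the 2 kinds of animals. Of 5644 members sorted in both kinds of animals, 3387 (60.01%) were in the same class. Of the 1545 opposite-strand members of the colchicine libraries among them, 1409 were opposite-strand in wild-type animals too. Of the 1037 members antisense in both in colchicine-treated animals, 457 were so in wild-type animals, 426 were mixed there and 133 were opposite-strand. Of the 2349 mixed members, 938 had been opposite-strand in wild-type animals. Of the 234 reverse members 145 were reverse in wild-type animals, and of the 479 members sense in both 343 were so there.

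In every class the median difference in antisense share between the 2 kinds of animals was larger in size for Hyli than for Hywi. In the class antisense in both, the median Hyli share was 98.1% in colchicine-treated animals and 84.5% in wild-type animals, and the median Hywi share was 99.9% in colchicine-treated animals and 99.6% in wild-type animals. In mixed members the median Hyli share was 47.5% in colchicine-treated animals and 21.7% in wild-type animals, a median difference of 17.3 points per transcript, while the Hywi share had a median difference of 0.623 points. In the opposite-strand class the median Hyli share was 7.07% in colchicine-treated animals and 3.47% in wild-type animals. In the reverse class it was 95.3% in colchicine-treated and 93.4% in wild-type animals. The class sense in both went the other way, with 6.46% in colchicine-treated and 7.98% in wild-type animals, a median difference of -1.90 points. The Hywi share differed by a median of at most 1.61 points in every class. The classes were formed from the colchicine shares, so a distance from them in wild-type animals is a description and not a test.

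The largest increases in Hyli antisense CPM, scaled to both strands, colchicine against wild type, were in t1007aep, t32028aep and t27651aep. Transcript t1007aep had 8505 CPM Hyli antisense in colchicine-treated animals, against 325 CPM in wild-type animals. Transcript t32028aep had 7627 CPM in colchicine-treated and 1270 CPM in wild-type animals, and t27651aep had 4390 CPM in colchicine-treated and 263 CPM in wild-type animals. In Hywi, t1007aep had 195 CPM over both strands in colchicine-treated animals, against 1862 in wild-type animals, while t32028aep had 6.80 CPM in colchicine-treated and 6.21 CPM in wild-type animals. The Hywi level of t32028aep was thus near equal in both, and that of t1007aep was lower in colchicine-treated animals.

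The degradome was a readout that neither the members nor the classes used. In the colchicine library of 176897 counts, 11.5% of all 38747 transcripts and 29.2% of the members had at least 3 counts. This share was 63.1% in the class sense in both, 54.6% in the opposite-strand class, 37.3% in mixed members, 31.9% in the reverse class and 10.2% in the class antisense in both. In the wild-type library of 765341 counts, 19.4% of all transcripts reached 3 counts, and the classes formed in colchicine-treated animals had 80%, 93.4%, 70.4%, 54.7% and 28.4% in the same order. The class antisense in both was thus the lowest in each library and stood near the share of all transcripts in the colchicine one. The classes hold different transcripts, and the part of transcript length and mRNA level in these shares was not tested. The shares with enough mRNA counts to be tested in the hywi knockdown were 99.5%, 78.2%, 81.8%, 81.4% and 56.2% in the same order of classes.

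By its part of the library, the opposite-strand class held 52.9% of colchicine degradome counts, the class sense in both 11.4%, mixed members 20.4%, the class antisense in both 2.92% and the reverse class 1.105%. In the wild-type library these were 32.8%, 42.6%, 16.0%, 1.13% and 1.08%. A pair of transcripts sense in both, t22393aep and t14592aep, held 25.0% and 13.2% of the wild-type degradome, with 191412 and 100715 counts. Without them the opposite-strand class held 53.0% of the wild-type degradome and the class sense in both 7.23%. They were singled out after their values were seen, and in the colchicine degradome they had 7 and 37.3 counts.

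Among the named transcripts, degradome counts in the colchicine library were 482 for t25884aep, 181 for t37924aep and 103 for t25197aep in the opposite-strand class. In the class sense in both they were 1672 for t30823aep, 848 for t12446aep and 85 for t23853aep. In the class antisense in both they were 0 for t24892aep, 52.3 for t37327aep and 40 for t2624aep. Transcript t24892aep, first in Hywi antisense counts, thus had 0 degradome counts, and it had 0 in wild-type animals as well. In the reverse class t5835aep had 4, t36613aep 12 and t31165aep 8 degradome counts.

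The hywi knockdown was the remaining readout, and asks whether mRNA of the strand classes differs when hywi is lowered in epithelial stem cells of otherwise untreated animals. With edgeR's quasi-likelihood test, 0 transcripts were higher (0.0%) and 0 were lower (0.0%) of 19683 tested at a Benjamini-Hochberg adjusted p under 0.05 (lowest adjusted p 0.875). Without adjustment, 577 were higher (2.93%) and 141 lower (0.716%) at a p under 0.05, and DESeq2 called 2 higher and 1 lower. With the replicate number as a block, edgeR called 231 higher (1.17%) and 18 lower (0.0914%). These counts depend on single pairs of libraries: they were 219 and 16 without pair 1, 357 and 105 without pair 2, and 365 and 52 without pair 3. Of the 8696 members that passed the filter on low counts, 119 (1.37%) were higher and 4 lower with the block, close to the share over all tested transcripts.

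Per class, the opposite-strand class had a median log2 fold change of 0.23 over 1280 of its 1636 members, beside 0.02 over all tested transcripts and -0.04 over transcripts that were no members. The class antisense in both had 0.21 over 884 of 1573, the reverse class 0.15 over 293 of 360, mixed members 0.14 over 2506 of 3063 and the class sense in both -0.04 over 647 of 650. By replicate pair, the opposite-strand medians were 0.18, 0.13 and 0.37, those of the class antisense in both 0.17, 0.04 and 0.38, and those of the class sense in both -0.09, -0.03 and -0.06. The medians of all members were above 0 in the 3 pairs as well (0.03, 0.01 and 0.20), and that of the class sense in both was below 0 in each. Relative to the mean of the 6 libraries, the median log2 level of the opposite-strand class was 0.28, -0.01 and 0.11 in the knockdown libraries and 0.10, -0.15 and -0.27 in wild-type siblings, so the groups overlapped. Sibling library 3 was the lowest of the 6 for that class, for the class antisense in both (-0.25), the reverse class (-0.24) and mixed members (-0.23), and its part in the medians was not tested beyond leaving it out. In mixed members the medians were 0.06, 0.01 and 0.34, so pair 3 carried most of their shift, and without it the blocked median was 0.02. For the reverse class the pair medians were 0.08, 0.00 and 0.34, and the blocked median without pair 3 was 0.05. With each library left out in turn, the median ran from 0.14 to 0.35 in the opposite-strand class and from 0.13 to 0.27 in the class antisense in both.

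**Figure D5:**
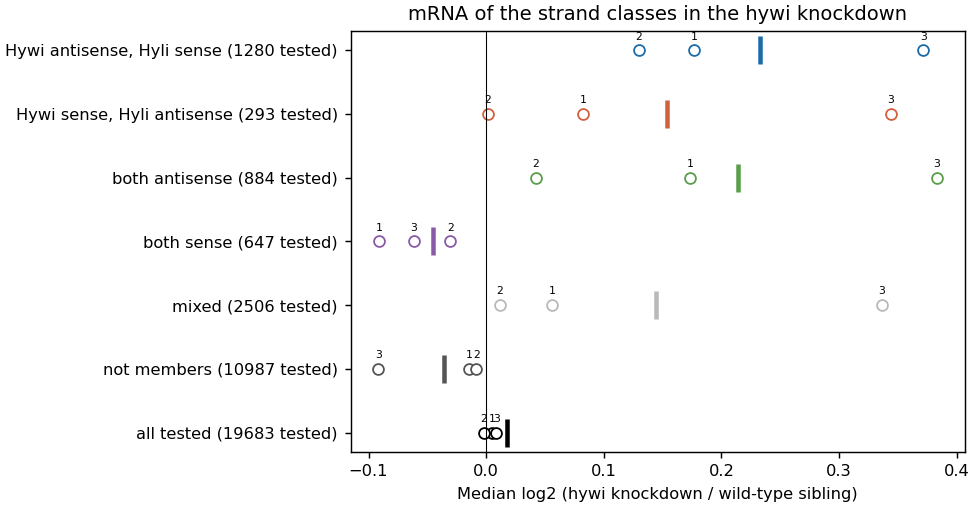
Median log2 fold change of mRNA, hywi knockdown over wild-type siblings, for the members of each strand class, with a bar for the edgeR fit of 6 libraries and numbered circles for the 3 replicate pairs. Pair 3 lies highest in the other 4 classes, and in the class sense in both the 3 pairs lie between -0.09 and -0.03.

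Beside 1.17% higher over all tested transcripts, the calls with the block were 19 higher (1.48%) and 0 lower in the opposite-strand class and 41 higher (1.64%) and 0 lower in mixed members. They were 6 (2.05%) and 0 in the reverse class, 4 (0.618%) and 1 in the class sense in both, and 3 (0.339%) and 1 in the class antisense in both. These shares are from few calls and lie on either side of that over all tested transcripts. Among the transcripts named by rule and tested, only t22592aep passed with the block. It had 31.2, 21.8 and 22.3 CPM in the knockdown libraries, against 19.6, 17.9 and 12.9 CPM in wild-type siblings. Every knockdown value was above every sibling value in CPM. Its log2 fold change with the block was 0.50 (SE 0.11) with an edgeR Benjamini-Hochberg adjusted p of 0.0451, and 0.875 without the block.

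The 4 members lower with the block were looked at after their values were seen, and t34367aep, sense in both proteins, was the most abundant. It had 294, 294 and 403 CPM in the knockdown libraries, against 693, 657 and 638 CPM in wild-type siblings, with no overlap. Its log2 fold change was -1.103 (SE 0.11) with the block, at an edgeR Benjamini-Hochberg adjusted p of 0.000558, and the adjusted p was 0.875 without the block. The others were t27294aep (log2 fold change -0.74, antisense in both), t22035aep (-0.63) and t37529aep (-0.61).

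Of the largest transcripts, t24892aep had 1.67, 1.36 and 1.02 CPM of mRNA in the knockdown and 1.03, 1.09 and 0.857 CPM in wild-type siblings, and its adjusted p was 0.514 with the block in edgeR. Transcript t30823aep had 437, 3963 and 630 CPM in the knockdown and 802, 1675 and 438 CPM in wild-type siblings, with an adjusted p of 0.735 with the block in edgeR. For t24892aep the lowest knockdown value lay below 2 of the sibling values. For t30823aep the second library of each group was the highest, and the groups overlapped throughout. Transcript t25884aep of the opposite-strand class had 8.45, 5.55 and 7.06 CPM in the knockdown and 6.03, 4.50 and 5.92 CPM in wild-type siblings, with an adjusted p of 0.397 with the block in edgeR.

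The members closest to the minimum were t22592aep, with 61.6 Hyli antisense counts, and t33588aep, with 167 Hywi antisense counts, both at 10.0 CPM. Just outside were t15497aep and t27737aep, each with 166 Hywi antisense counts and 9.99 to 10.0 CPM. The values on either side of the minimum thus differed by less than 1 count in the Hywi antisense column.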

How the data were processed

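The authors deposited expected counts for the same 38747 transcripts: per replicate for mRNA, by sense and antisense mapping for immunoprecipitates, and for sense mapping in the degradome, per the file headers. The submitters' processing notes name cutadapt, RSEM 1.2.31 and Bowtie for the immunoprecipitates, and Trimmomatic 0.33, RSEM 1.2.31 and Bowtie 1.1.2 for mRNA, without their settings. How reads that map to several transcripts were divided is not given in the sources used here, and it decides fractional values. The 2 immunoprecipitates were scaled to CPM by the total of each strand column, or of both strands where stated, and compared as log2 ratios with a pseudocount of 1 CPM and a limit of 4-fold (pandas 2.3.3, numpy 2.4.6 and scipy 1.17.1 in Python 3.11.15, with matplotlib 3.10.9 for figures). Folds against 3 or fewer counts are bounds.

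The mRNA estimated counts were rounded, filtered with filterByExpr, scaled by TMM and compared by the two-sided quasi-likelihood test of edgeR 4.0.16, run in R 4.3.3. P-values were adjusted by Benjamini-Hochberg over all tested transcripts. DESeq2 1.42.0 was an alternative. The labels do not say that libraries came from separate cultures, so p-values measure the spread between these libraries, which held 22.2 to 27.6 M counts. Libraries of 1 group differed by more than sampling noise (chi-square per degree of freedom 14.8 to 50.9). Deviations from the group means correlated by 0.62, 0.27 and 0.30 between libraries of the same replicate number, and by -0.43 to 0.20 between others, so the numbers were taken as pairs.

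Transcripts were named by rule: the 5 with most counts in each column, the 4 highest and 4 lowest Hywi antisense to Hyli sense ratios, 3 per unmixed class by the smaller of the Hywi and Hyli levels, the 3 largest increases of Hyli antisense against wild type, and 2 on either side of the minimum. The reference gene table held 0 of the transcript names. The members, the classes and the tests were chosen with earlier results of these data known. Alternatives were other pseudocounts, minimums, scalings, strand limits and tests, and libraries left out. Chosen after seeing the data were the settings for the same-strand ratios, the block with DESeq2 or without each pair, the class medians under other scalings, the counts over members of both kinds of animals, and the wild-type degradome without 2 transcripts. On simulated data with planted log2 changes of 2, edgeR found 190 of 191 changed transcripts without the block (13 false calls). With the block it found 194 of 194 (6 false). The ratio found 100 of 100 raised and 100 of 100 lowered transcripts at 16-fold, among 3029 with many counts and against a limit of 4-fold. These planted changes are large, so the runs check the code and do not measure power for small shifts.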

Additional observations from a re-analysis of the deposited data

Results flagged for a closer look

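Among the named transcripts, 3 differed in direction of Hywi against Hyli between the 2 kinds of animals with a log2 ratio of at least 1 in size in both. Over both strands, t24892aep (3.44 in colchicine-treated and -0.59 in wild-type animals), t36613aep (-1.48 and 0.81), t30823aep (-0.98 and 0.36) and t2624aep (0.16 and -1.91) were among those that also had opposite signs, with a ratio under that size in 1 or both kinds of animals. With 1 library each, none of these differences was tested. Transcript t15132aep had a log2 ratio of Hywi over Hyli, both strands, of 1.65 in colchicine-treated animals and -1.11 in wild-type animals, and its log2 ratio of Hywi antisense over Hyli sense was 3.23 in colchicine-treated animals and -1.80 in wild-type animals. It had 120034 antisense and 1602 sense counts in Hywi and 20496 antisense and 5135 sense counts in Hyli in colchicine-treated animals. In wild-type animals these were 18378 and 8899 in Hywi and 12078 and 94709 in Hyli. Hyli sense counts were thus the most abundant of the 4 in wild-type animals, and Hywi antisense counts in colchicine-treated animals.

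Transcript t1007aep had a log2 ratio over both strands of -5.44 in colchicine-treated animals and 2.11 in wild-type animals. It had 2928 Hywi sense and 109195 Hyli antisense counts in colchicine-treated animals, against 41277 Hywi sense and 13153 Hyli antisense counts in wild-type animals. Transcript t15818aep had a log2 ratio over both strands of -6.36 in colchicine-treated animals and 1.64 in wild-type animals. Its sense counts in colchicine-treated animals were 4212 for Hywi and 261108 for Hyli, against 1084 for Hywi and 600 for Hyli in wild-type animals.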

How the results depend on the processing

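The 2 immunoprecipitates have no replicates, so every difference between them is limited by 1 library a side, and the depth of the columns, from 2.72 M to 16.6 M counts, sets how low a level could be seen. Values moved by more than 1.5 times, or by more than counting error, as follows. The minimums and the limit to whole numbers also changed how many members were counted. There were 5651 at 50 CPM, 25116 at 1 CPM and 136 whole-number members, against 11641. Numbers under these settings are therefore out of different totals and do not by themselves show a changed share. The cause of the other moves was not tested. For Hywi antisense over Hyli sense, the numbers higher and lower were 1539 and 1018 with a pseudocount of 10 CPM, 1747 and 1491 with a minimum of 50 CPM, and 35 and 13 among whole-number members, and 1915 were lower with median-ratio scaling. Over both strands they were 986 and 1101 with a pseudocount of 10 CPM and 28 and 56 among whole-number members, and 1470 were lower at 50 CPM. For the antisense pair they were 1549 and 1327 with a pseudocount of 10 CPM, with 5417 lower at 1 CPM. At 50 CPM 1590 were lower, beside 2073 higher, which moved by less than 1.5 times. For the sense pair they were 1374 and 2020 with a pseudocount of 10 CPM, with 1566 higher at 50 CPM. At 1 CPM 4189 were higher and 4063 lower, a turn of direction in which each number moved by less than 1.5 times. Of 35 named ratios of Hywi antisense over Hyli sense, 13 moved with a pseudocount of 0.1 CPM, 20 with 10 CPM, 23 with both-strand totals and 27 with median-ratio scaling, and 0 that were past 4-fold changed sign. With 10 CPM, t30823aep had -11.86 and t12446aep -10.37, and with median-ratio scaling t15132aep had 4.38. The median of this ratio in the opposite-strand class was -0.41 with both-strand totals and 0.0034 with median-ratio scaling.

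Class sizes followed the limits. At 90% and 10% the opposite-strand, reverse and sense-in-both classes had 1034, 163 and 366 members. At 60% and 40% the reverse, sense-in-both and mixed classes had 795, 1022 and 954. With at least 10 counts they had 673, 1014 and 4688, and with at least 200 counts 150, 188 and 1301, with 757 antisense in both. The opposite-strand class had 1815 of 10539 sorted members (17.2%) at 10 counts and 1142 of 3538 (32.3%) at 200 counts. Among whole-number members the opposite-strand, reverse, antisense-in-both, sense-in-both and mixed classes had 15, 8, 13, 2 and 17 of the 55 that could be sorted. The antisense shares of Hywi and Hyli were 87.4% and 51.2% without the 10 largest transcripts, 87.8% and 50.8% without the 100 largest, 86.0% and 47.4% over members, and 85.1% and 77.4% over whole-number transcripts.

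At a minimum of 1 CPM the Spearman correlations were 0.10 for Hywi antisense with Hywi sense, 0.15 for Hywi sense with Hyli antisense and 0.19 for Hyli antisense with Hyli sense, each of the opposite sign. The others were 0.47 (antisense pair), 0.43 (Hywi antisense with Hyli sense) and 0.50 (sense pair). At 50 CPM they were -0.36 (within Hywi), 0.39 (antisense pair), 0.31 (Hywi antisense with Hyli sense), 0.20 (sense pair) and -0.23 (within Hyli).

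In the knockdown, where edgeR called 0 and 0, DESeq2 called 2 higher and 1 lower, the replicate block 231 and 18, and the block with DESeq2 153 and 41. With the block and without pairs 1, 2 and 3 in turn, 219, 357 and 365 were higher and 16, 105 and 52 lower. The median of the class sense in both ran from -0.0772 (without knockdown library 3) to -0.0305 (without knockdown library 1), and with the block from -0.0795 (without pair 2) to -0.0170 (without pair 1). The wild-type degradome without its 2 largest transcripts had 53.0%, 1.74%, 1.83%, 7.23% and 25.8% in the opposite-strand, reverse, antisense-in-both, sense-in-both and mixed classes.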
